A study of Bos taurus with 6 samples.

Results

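Multi-summit H3K4me3 domains of bovine embryonic stem cells are runs of neighbouring H3K4me3 peaks on the autosomes. They were chosen by the positions of the H3K4me3 summits alone. The summits of lines A and B on chromosomes 1 to 29 were pooled, summits at most 5000 bases apart were joined into chains, and chains with at least 3 summits of each line were kept. This gave 424 domains among 17446 chains, or 2.72% of the 15589 chains that held a summit of each line. The domains held 1567 of the 19966 autosomal H3K4me3 summits of A (7.85%) and 1657 of the 20961 of B (7.91%), and their pooled spans added up to 3.21 Mb. They are compared below with 1491 paired sites (chains of exactly 2 summits per line) and 12104 solitary sites (exactly 1 per line). Another 1570 chains with a summit of each line fell in none of these classes and are given beside them for score and H3K27me3.

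The cells were embryonic stem cells derived from bovine blastocysts, at passage 12, of 2 independent lines, called A and B, grown on mouse feeder cells with FGF2 and the WNT inhibitor IWR1. Feeders were taken out with magnetic beads before chromatin was made. Each line had 1 H3K4me3 and 1 H3K27me3 library, so n = 2 per mark, and the 2 inputs were not analysed here. No treatment, sex or animal was compared, and each line is 1 culture, so any difference between the lines is one between single libraries.

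Trimethylation of histone H3 at lysine 4 is placed by SET1 and MLL complexes around active and poised transcription starts, above all at CpG islands. Long stretches of it are known from genes that keep a high and steady output in a given cell type. Trimethylation at lysine 27 is placed by Polycomb repressive complex 2 and spreads over silenced developmental genes. In pluripotent cells many such genes carry both marks, the arrangement called bivalent. The lists hold positions of single bases and no gene names, so which genes the domains cover was not analysed here.

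Every peak in the lists had a name of its own and 1 summit, and no name carried the letter that marks a second summit of the same peak. A domain is therefore a run of separate peaks. One long unbroken peak would count as 1 summit and could not enter by itself. The peak score was read as a −log10 value of either p or q, from its lowest values and the peak caller named for the lists. It had a median of 36.6 over the H3K4me3 list of A and 56.6 over that of B. Its median over the H3K27me3 lists was 9.31 and 9.49. Scores move with depth, which is unknown, so they are read within a list.

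Most domains were short. The span from first to last summit had a median of 6.26 kb in A and 6.55 kb in B (6.40 ± 0.207 kb, SD, n = 2). The quartiles were 4.52 and 8.54 kb in A, and 4.47 and 8.91 kb in B. Spans ran from 1.14 to 39.2 kb in A and from 1.22 to 44.0 kb in B. By the mean of the lines, 14 domains were under 2 kb, 68 were over 10 kb and 6 were over 20 kb.

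The number of summits sat close to the minimum that the rule set. Exactly 3 summits in each line were found in 192 domains (45.3%). The mean number was 3.70 in A and 3.91 in B, and 6 domains in each line had 10 or more. Neighbouring summits of a line lay a median of 2222 bases apart in A and 2289 in B. In each line 8 gaps, of 1143 in A and 1233 in B, were 500 bases or less, and the closest summits were 421 and 436 bases apart. The peaks of a domain were thus spaced in kilobases.

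The lines drew the same outlines for most domains. In 340 domains (80.2%) the spans of the lines differed by at most 1 kb. The summit numbers were equal in 247 domains (58.3%), differed by 1 in 135 and by more in 42, with line B ahead in 117 and line A in 60. Across the 424 domains Spearman's rho between the lines was 0.921 for span, 0.549 for summit number and 0.804 for the median score. These values describe domains chosen for holding summits of both lines, and the rule favours such likeness.

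**Figure D1:**
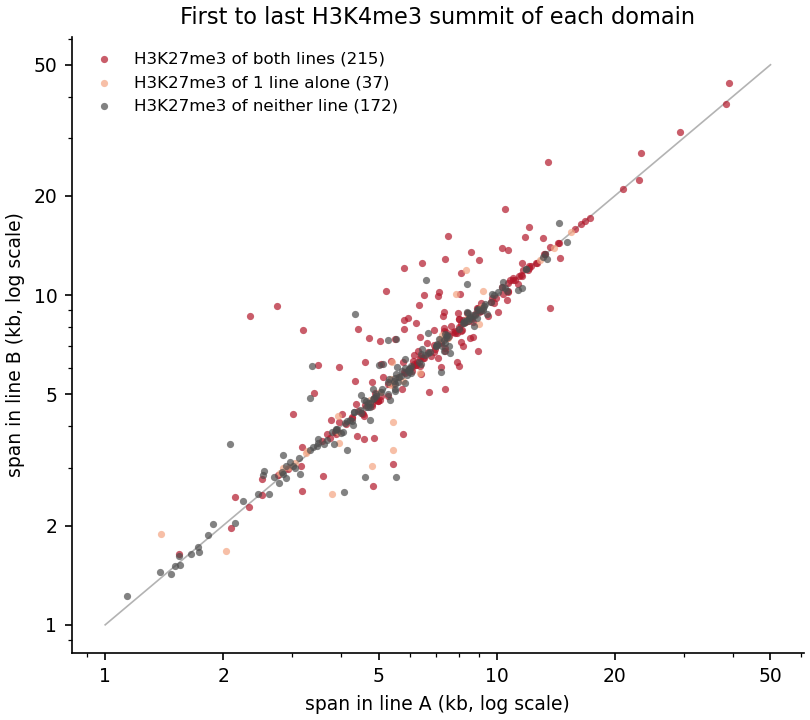
Each point is 1 of the 424 domains, with its span in A on the horizontal and in B on the vertical axis (kb, both log scales), coloured by whether H3K27me3 summits of both lines, 1 line or neither lay in it or within 1 kb. Most points follow the line of equal spans, and all 6 domains over 20 kb by the mean of the lines have H3K27me3 of both lines.

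Within a domain the individual summits also coincided between lines. The median distance from a line A summit to the nearest line B summit, taken per domain, had a median of 67.0 bases over domains, with quartiles of 36.0 and 131 bases. It was 58.5 bases for paired and 53.0 bases for solitary sites. In 82 domains (19.3%) the distance was at most 30 bases, against 24.1% of paired and 32.6% of solitary sites.

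Domain summits were mostly weak, and most domains, but not all, had a summit at or above the list median. The median score of all domain summits was 18.3 in A and 30.2 in B, with log2 ratios to the list medians of -0.998 and -0.91. Solitary summits had 48.5 and 81.4, and paired summits 33.7 and 54.2. Summits of the 1570 other chains had 22.1 and 29.8, near those of domains and in B under them, so weak summits were not particular to domains. The strongest summit of each domain had a median of 52.0 in A and 85.1 in B, close to a solitary site. For paired sites it was 57.0 and 91.8. As the highest of at least 3 summits, it is set here against the single summit of a solitary site. The strongest reached the list median in 288 domains (67.9%) in A and 289 (68.2%) in B. The weakest had 7.52 and 10.00, and lay under the list median in 411 domains (96.9%) in A and 403 (95.0%) in B.

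The strongest summit had no fixed place in the row. In the 261 domains with 3 summits in A it was the first in 91, the middle one in 72 and the last in 98. In the 238 such domains of B it was the first in 92, the middle one in 65 and the last in 81. The lines picked the same place: in 323 domains (76.2%) their strongest summits lay within 1 kb of each other. Since scores come from the same lists as the rule, these values describe the domains and test nothing.

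H3K27me3, which the rule did not use, was met in most of the domains, and more of them had it in both lines than in neither. Summits of both lines lay in the span or within 1 kb of 215 of 424 domains (50.7%, 95% Wilson interval 46.0% to 55.4%). Another 23 had H3K27me3 of A alone, 14 of B alone, and 172 (40.6%, 36.0% to 45.3%) had none in either line. Over all 15589 chains with a summit of each line the share with H3K27me3 of both lines was 18.9%. It was 23.6% for paired sites (Wilson interval 21.5% to 25.8%) and 15.8% for solitary sites (15.1% to 16.4%). The 1570 other chains with a summit of each line came nearest to the domains, with 29.9% (27.7% to 32.2%). The intervals stand for counting error alone. Since sites of 1 genome are not replicates of a condition, no test was made.

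Width alone raises such a share, since a longer stretch can hold more summits. In windows of equal width around the midpoint of every chain the difference depended on the width. With 5 kb to each side, 212 domains (Wilson interval 45.3% to 54.7%) had H3K27me3 of both lines, against 24.7% of paired and 18.2% of solitary sites. With 1 kb to each side it was 17.9% (14.6% to 21.9%) of domains, 12.8% of paired and 15.4% of solitary sites (14.8% to 16.1%), so the intervals of domains and solitary sites overlapped. The midpoint of a solitary site lies by its summits, while that of a domain or pair can fall between peaks. The narrowest window thus does not compare like places. With 50 kb to each side the shares of domains, paired and solitary sites were 66.7%, 43.2% and 36.7%. Around the strongest line A summit alone, 1 kb to each side, 86 domains (20.3%, 16.7% to 24.4%) had it, against 15.4% of solitary sites (14.8% to 16.0%). The part of width in the share over the whole domain was measured only by these windows.

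**Figure D2:**
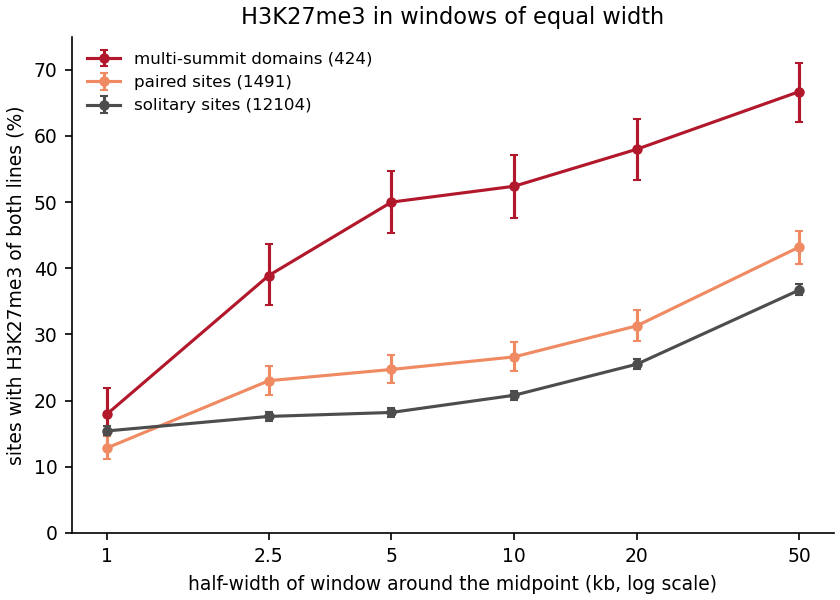
Percent of sites with H3K27me3 summits of both lines (vertical axis) in windows of equal width around the midpoint, by half-width in kb (horizontal, log scale), for domains, paired and solitary sites. Bars are 95% Wilson intervals. The share of domains goes from 17.9% at 1 kb to 66.7% at 50 kb, while that of solitary sites goes from 15.4% to 36.7%.

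Counted by summit, 572 of 1567 domain summits of A (36.5%) and 572 of 1657 of B (34.5%) had an H3K27me3 summit within 1 kb (35.5% ± 1.40, SD, n = 2). The shares over all autosomal H3K4me3 summits were 24.2% and 19.8%. Solitary summits had 21.8% and 17.3%, and paired summits 20.9% in A (624 of 2982) and in B 537 of 2982, so paired summits lay under the solitary ones in A and above them in B. In all 3 classes and in both lines, summits under the list median had H3K27me3 more often than those above it, and domains were rich in weak ones: 41.9% of the domain summits of A fell in the lowest score quartile of their list, against 14.5% of the solitary ones. Within that lowest quartile 44.1% of the domain summits of A (Wilson interval 40.3% to 47.9%) had H3K27me3, against 33.1% of the solitary ones (31.0% to 35.4%). In B these shares were 41.6% (37.8% to 45.5%) and 26.4% (24.1% to 28.7%). In the next quartile up they were 39.7% (35.3% to 44.3%) and 34.4% (32.6% to 36.1%) in A, with overlapping intervals, and 38.8% (34.7% to 43.1%) and 28.8% (27.2% to 30.5%) in B. In the third quartile domains and solitary sites lay within counting error of each other, at 20.8% and 21.3% in A and 17.9% and 18.7% in B.

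In the highest score quartile the domain value rested on a few regions. There 24.6% of domain summits of A and 26.3% of B had H3K27me3, against 7.75% and 4.49% of solitary summits. Without 8 domains of extreme score, described below, the shares in that quartile were 6.13% (10 of 163 summits, Wilson interval 3.37% to 10.9%) and 7.14% (12 of 168, 4.13% to 12.1%). In the lowest quartile leaving them out gave 43.2% and 41.0%. All 8 had H3K27me3 of both lines, and the group was set partly by H3K27me3 score after the values were seen. A lower share without them is thus in part by construction.

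H3K27me3 was densest inside the spans and thinned out with distance. Inside, line A had 2.27 H3K27me3 summits per 10 kb and line B 1.94, counted over all 424 domains. Up to 5 kb outside there were 0.837 and 0.715, at 5 to 20 kb 0.399 and 0.292, and at 20 to 100 kb 0.189 and 0.124. The autosomal mean was 0.0703 in A and 0.0521 in B, so even the outermost zone held more than the mean. Within 5 kb of the midpoint domains had a mean of 1.66 and 1.49 H3K27me3 summits. Paired sites had 0.663 and 0.510, and solitary sites 0.425 and 0.303. Within 1 kb solitary sites already had 0.252 and 0.195, so H3K27me3 thinned out with distance from them too. The median over domains was 1.18 inside the span in A and 0.948 in B, below the pooled density. The zones were counted for each domain, so those of close neighbours overlap. In all, the domains and 1 kb to each side made up 0.162% of the autosomal length and held 873 H3K27me3 summits of A (4.94%) and 742 of B (5.67%). Their scores did not lean one way: the median was 14.7 there against 11.2 elsewhere on the autosomes in A, and 11.5 against 13.3 in B.

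**Figure D3:**
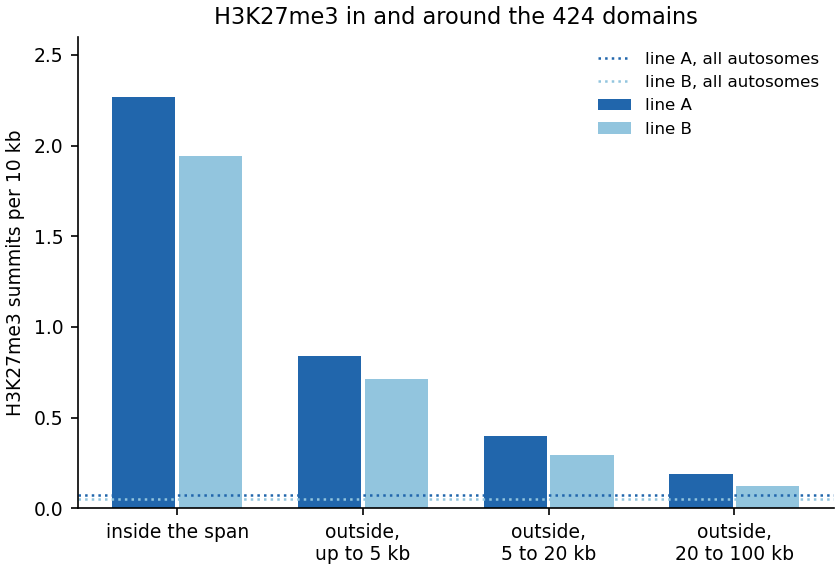
H3K27me3 summits per 10 kb (vertical axis) inside the 424 domains and in 3 zones outside them, for lines A and B. Dotted lines are the means over all autosomes. The density goes from 2.27 and 1.94 inside to 0.189 and 0.124 at 20 to 100 kb.

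Where H3K27me3 of both lines was present, the median length of its stretches was near that of the H3K4me3 domains, with a wide spread. Joining H3K27me3 summits at most 5000 bases apart gave stretches over these 215 domains with a median of 8.54 kb (quartiles 4.17 and 15.3 kb), beside a median pooled H3K4me3 span of 7.99 kb. The stretch was wider than the pooled H3K4me3 span in 118 of the 215 (54.9%). It passed both ends of the domain in 80 of the 215 (37.2%), passed 1 end in 77 and lay wholly inside in 58. Between the outermost H3K4me3 summits of their line, 626 H3K27me3 summits of A lay a median of 504 bases from the nearer H3K4me3 summit, and 596 of B a median of 444 bases. They leaned toward the peaks: 60.7% in A and 63.3% in B lay in the outer parts of the gap, which were set to be as long together as its middle part. No place in the row was spared. In the 111 domains with 3 H3K4me3 summits in A and H3K27me3 of both lines, 56.8% of first, 53.2% of middle and 66.7% of last summits had it within 1 kb. In the 84 such domains of B these were 54.8%, 58.3% and 65.5%.

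H3K27me3 summits of the lines lay further apart than their H3K4me3 summits. Over the same 215 domains the H3K27me3 summits of A lay a median of 432 bases from the nearest of B (quartiles 172 and 870), while the H3K4me3 summits lay 84.0 bases apart (41.0 and 169). The H3K27me3 distance was the larger in 172 domains (80.0%). The 2 distances are not on equal terms. Domains were chosen for holding several H3K4me3 summits of each line, which favours short H3K4me3 distances, while H3K27me3 had only to be present in each line. No H3K27me3 distance outside the domains is set beside these values. The number of H3K27me3 summits per domain was alike in the lines (Spearman's rho 0.873 over 424 domains, of which many share a count of 0).

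Domains with H3K27me3 of both lines were the wider ones and had the lower H3K4me3 scores, with overlap. The 215 with H3K27me3 of both lines spanned a median of 7.22 kb in A and 7.72 kb in B, and the 172 without 5.51 and 5.67 kb. Over 10 kb were 50 of the former (23.3%) and 14 of the latter (8.14%). The strongest H3K4me3 summit had a median score of 37.6 in A (quartiles 22.9 and 57.8) with H3K27me3 of both lines and 66.9 (45.6 and 89.1) without. In B these were 55.5 (39.6 and 87.6) and 118 (81.2 and 156). The 37 domains with H3K27me3 of 1 line lay near those without it, at 64.9 and 96.9. In both lines the quartile ranges of the groups with and without overlapped, in B only from 81.2 to 87.6.

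**Figure D4:**
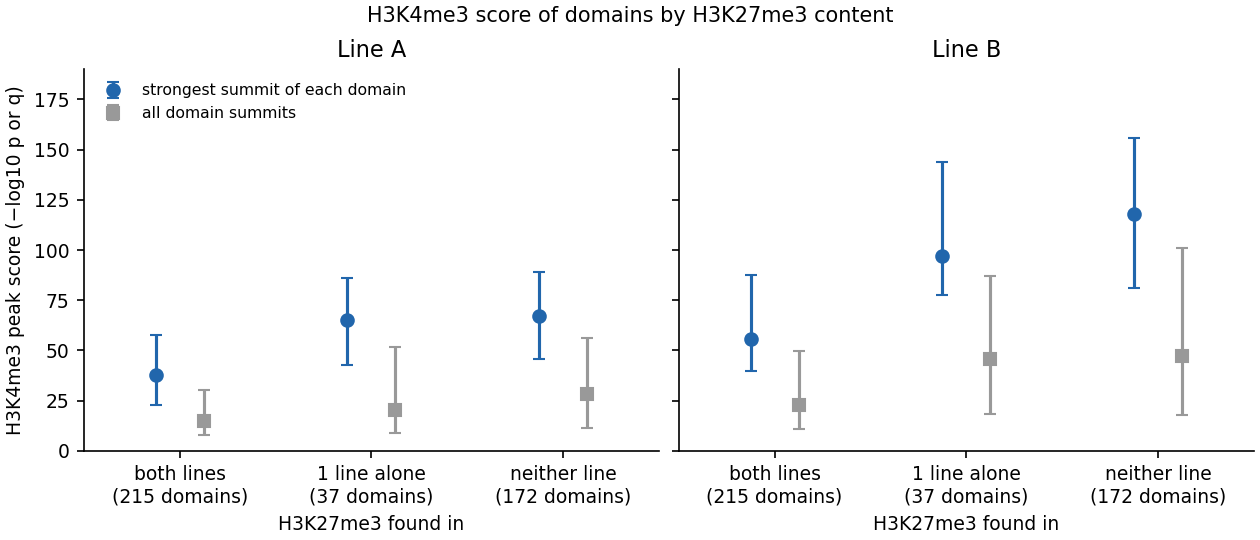
H3K4me3 peak score (vertical axis, −log10 of p or q) by H3K27me3 content of the domain, for each line. Blue points are medians over the strongest summit of each domain, grey squares medians over all domain summits, and bars run from the lower to the upper quartile. Domains with H3K27me3 of both lines lie lowest, with 37.6 and 55.5 for the strongest summit against 66.9 and 118 without H3K27me3.

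The share with H3K27me3 of both lines was higher in wider domains and in those with more summits. From the narrowest to the widest quartile of mean span, of 106 domains each, it was 32.1%, 45.3%, 59.4% and 66.0%. The region counted grows with the span, and in the fixed window of 1 kb around the strongest summit of A the shares were 14.2%, 16.0%, 26.4% and 24.5%, with no step up from the third to the fourth. Among the 192 domains with exactly 3 summits in each line it was 34.4% (Wilson interval 28.0% to 41.3%), and among the other 232 it was 64.2% (57.9% to 70.1%). Summit number rose with span (Spearman's rho 0.543 in A and 0.659 in B), and the fixed window was not computed for this split. By strength of the strongest line A summit the share ran the other way. From the lowest score quartile of the list to the highest it was 20 of 23, 86 of 113, 73 of 145 and 36 of 143 domains. In the fixed window the lowest quartile did not lead: the shares were 21.7% (5 of 23), 41.6%, 15.9% and 7.69%. Solitary sites had 23.1%, 26.5%, 15.6% and 4.68% over the whole site, so a lower share at high scores was found in them too. Inside domains that had H3K27me3 the weaker summits were not set apart from the strongest by much. In A 54.2% of strongest and 63.2% of other summits in such domains had H3K27me3 within 1 kb, and in B 54.6% and 58.1%. In 52 of 238 domains with H3K27me3 of A, and in 36 of 229 with that of B, every H3K4me3 summit of the line had it. Across all 424 domains Spearman's rho between the strongest score and H3K27me3 per kb was -0.400 in A and -0.474 in B, over points that share their libraries.

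The first domains in genome order with 3 summits in each line were on chromosome 1 (UMD3.1). That at chr1:2914877-2919305 spanned 4.32 and 4.42 kb in lines A and B, with median scores of 19.0 and 42.6 and no H3K27me3. The next, at chr1:81252013-81256191, spanned 4.15 and 4.14 kb, also without H3K27me3. The next after it, at chr1:131239246-131243503, spanned 4.26 and 4.25 kb, and 2 and 4 H3K27me3 summits lay in it or within 1 kb. Just outside were 320 chains with at least 3 summits in one line and 2 in the other, 137 of them with more in A. One, at chr1:11270376-11273080, had 2 summits in A and 3 in B, spans of 0.766 and 2.70 kb, and 4 and 3 H3K27me3 summits. Those at chr1:70790689-70792787 (2 and 3 summits) and chr1:81878851-81883427 (3 and 2) had none. These 320 chains had H3K27me3 of both lines in 47.2% (Wilson interval 41.8% to 52.7%), against 34.4% of domains with 3 summits in each line. Their median spans per line were 3.18 and 3.84 kb, against 4.83 and 4.84 kb, but 1 line has only 2 summits by definition. H3K27me3 was counted over the pooled span, whose median was not computed for these groups. Their H3K4me3 scores were lower, with medians of 24.4 and 35.4 against 26.1 and 44.0. Chains just under the threshold thus also carried H3K27me3.

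The broadest domain, chr25:2593880-2637919, carried 12 H3K4me3 summits in A over 39.2 kb and 16 in B over 44.0 kb. In A its summits scored from 3.33 to 85.6 and in B from 4.27 to 203, and the strongest lay 23482 bases from the first base in A and 23511 in B. The peaks of the lines matched, with a median distance of 61.5 bases. H3K27me3 ran through it with 15 summits in A (median score 11.3, highest 58.6) and 14 in B (median 5.68, highest 15.1), so that the median was above that of the list in A and under it in B, inside a stretch of 86.4 kb. The H3K27me3 summits did not match: those of A lay a median of 1748 bases from the nearest of B. Line A held 8 of them between 2.49 and 14.7 kb from the first H3K4me3 summit, then 1 each at 23.7 and 28.8 kb, and 5 from 36.1 to 44.0 kb. Line B held 13 between 12.1 and 36.6 kb and 1 at 44.1 kb.

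Apart from the chromosome 29 domain described below, 5 of the 10 widest domains had median H3K4me3 scores under the list median in both lines and H3K27me3 of both lines. The domain at chr23:30900157-30925564 had 10 summits in A over 13.5 kb and 15 in B over 25.4 kb, with median scores of 7.55 and 30.7, and 13 and 4 H3K27me3 summits. It was among the 3 with the largest gap in summit number between lines. At chr21:48206548-48224106 there were 5 and 7 H3K4me3 summits (medians 13.8 and 17.6) and 9 and 6 H3K27me3 summits (medians 11.5 in both lines). At chr18:50173336-50190189 there were 7 and 8 (medians 6.20 and 21.1) with 5 and 3. At chr18:62701815-62718258, with 7 in each line (medians 18.3 and 42.6), H3K27me3 had 5 summits in A and 1 in B. The domain at chr18:53501863-53524917, 23.1 and 22.4 kb wide with 7 summits in each line, had 1 H3K27me3 summit in each line, in a stretch of 0.349 kb at its end.

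Of the 5 domains with the most H3K27me3 summits per kb, 3 had H3K4me3 medians under the list median in both lines. At chr15:29277158-29281851, with 3 H3K4me3 summits in each line over 4.62 and 4.65 kb, 4 and 3 H3K27me3 summits lay inside the span (with 1 kb to each side, medians 7.17 and 10.0), and the H3K27me3 stretch ran over 18.5 kb. At chr10:73072661-73080503 there were 6 and 5 inside a domain of 7.83 and 7.78 kb (medians, taken likewise, 16.5 and 7.89), and its strongest H3K4me3 summit in A scored 103. At chr2:107727104-107730112 there were 2 in each line inside 2.93 and 2.98 kb (medians 32.7 and 24.9). The 3 domains with the lowest H3K4me3 scores also had H3K27me3 of both lines. At chr19:11890447-11897578 the median H3K4me3 score was 6.64 in A and 5.18 in B, and 4 and 3 H3K27me3 summits lay in it or within 1 kb. At chr5:30995445-31003439 the medians were 7.31 and 5.47, and at chr5:56531338-56537871 they were 5.04 and 8.42.

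By score 8 of the 424 stood apart, a group set after the values were seen. Each had a median H3K4me3 score, as the mean of the lines' log2 ratios to the list median, above 3, or median H3K27me3 scores over 10 times the list median in both lines. That H3K27me3 limit was passed by 10 domains in A and by 6 in B, so the edge of the group depends on asking for both lines. Over all domains that log2 ratio had a median of -0.89, an upper quartile of 0.00 and a maximum of 5.11. It was above 3 in 5 domains, and the next in order had 1.72.

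Those 5 had high scores of both marks. The domain chr27:26337044-26368237 had 15 and 16 H3K4me3 summits with medians of 865 and 2852 and the highest scores of each H3K4me3 list, 3033 and 11465, and held 31 and 17 H3K27me3 summits with medians of 493 and 68.2. The domain chr27:23690913-23717887 had 13 and 17 with medians of 589 and 1277, and 24 and 16 H3K27me3 summits. On chromosome 4 the domain at chr4:103642685-103663703 had 10 and 13 (medians 524 and 1292), with 20 and 12 of H3K27me3. The shorter ones, chr4:81708666-81714140 with 3 and 4 summits (medians 919 and 1673) and chr7:89223411-89227273 with 3 in each line (medians 119 and 1251), had 6 and 4 and 3 and 4 of H3K27me3.

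Positions in these 5 were close. From line A to line B the H3K4me3 summits lay a median of 2.00 to 16.0 bases apart. The median distance from an H3K27me3 summit to the nearest H3K4me3 summit of B had a median of 23.0 bases over the 5, against 448 bases over the 207 domains with H3K27me3 of both lines that were not in the group of 8. In A it was 458 against 525 bases. These distances start from the H3K27me3 summits. Counted from the H3K4me3 summits of A, the nearest H3K27me3 summit lay 0 to 409 bases away at chr27:26337044-26368237 and 0 to 358 at chr27:23690913-23717887. At chr4:103642685-103663703 it lay 1 to 281 bases away, and at chr7:89223411-89227273 1 to 45. In B these ranges were 1 to 2073, 0 to 934, 1 to 1507 and 2 to 58 bases. At chr4:81708666-81714140 all 4 H3K4me3 summits of B lay 1 to 16 bases from an H3K27me3 summit, and those of A 6, 279 and 676 bases. Whether the inputs are high at these places was not tested, since the inputs were not analysed here.

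The other 3 had strong H3K27me3 and weak H3K4me3. At chr29:19410119-19448738, the second broadest, 18 and 12 H3K4me3 summits had medians of 25.5 and 18.4, while 26 and 22 H3K27me3 summits had medians of 764 and 834. At chr3:1028108-1042639 there were 8 H3K4me3 summits in A and 3 in B (medians 22.3 and 23.0), and 10 and 9 H3K27me3 summits with medians of 1022 and 890. At chr8:56773732-56776912 there were 4 and 3 (medians 16.4 and 19.7), and 2 H3K27me3 summits in each line with medians of 1360 and 1380, inside a stretch of 141 kb. The first and the second of these were among the 3 domains with the largest gap in summit number between lines, and both had more in A. Outside the group of 8, a related region, chr6:19799365-19803816, had H3K4me3 medians of 40.5 and 353 and H3K27me3 medians of 989 and 37.2. Another, chr22:42428265-42435185, had H3K4me3 medians of 17.2 and 102, with strongest summits of 586 and 2641. Its H3K27me3 medians were 217 and 33.1. As in the 5 domains of high score, in both regions the H3K4me3 value was larger in the list of B and the H3K27me3 value in that of A. Scores of different lists are not on 1 scale.

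**Figure D5:**
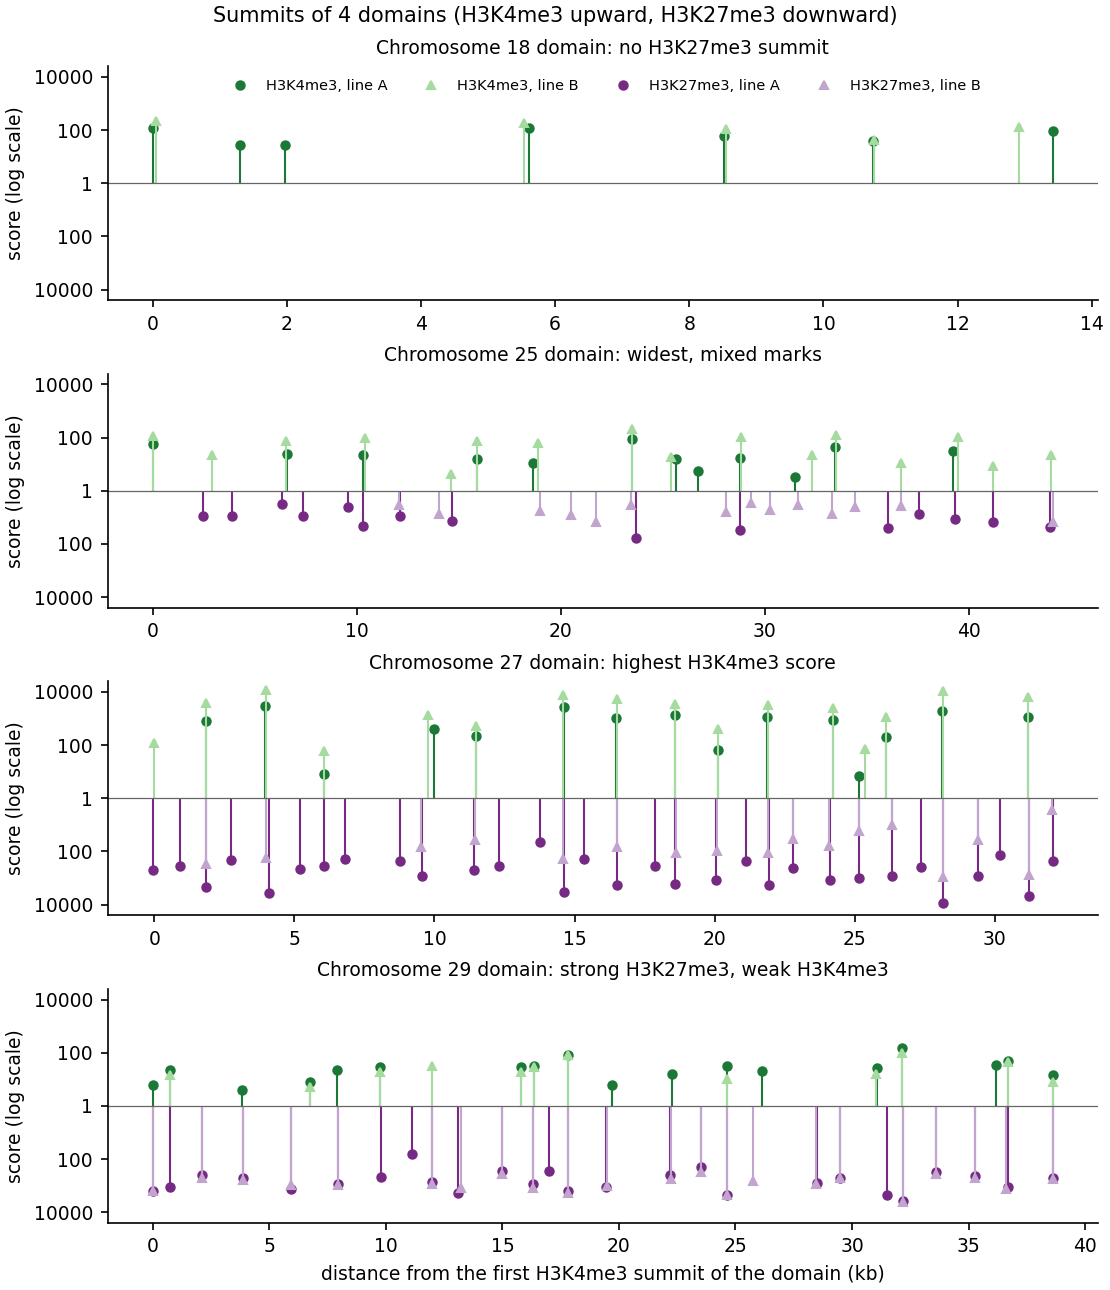
Summits of 4 domains along the distance from the first H3K4me3 summit (kb, horizontal axis), with the peak score on a log axis, H3K4me3 upward in green and H3K27me3 downward in purple. Circles are line A and triangles line B. The chromosome 18 domain has no H3K27me3, that of chromosome 25 has H3K27me3 summits of up to 58.6 in A and 15.1 in B, and those of chromosomes 27 and 29 have H3K27me3 scores of up to 8469 and 3891 in A.

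The widest domains free of H3K27me3 in both lines were shorter, at 13.1 to 15.5 kb by the mean of the lines. At chr23:31447500-31464121 there were 7 and 6 H3K4me3 summits over 14.4 and 16.6 kb, with medians of 13.5 and 46.9. At chr25:2433521-2448588 there were 5 and 6 over 15.1 and 14.5 kb, with medians of 24.4 and 73.6. At chr19:27554953-27568357 there were 6 and 7 with medians of 13.1 and 16.3, and at chr23:31526705-31539827 there were 5 and 4 with medians of 14.9 and 39.1. The fourth, chr18:62339953-62353372, had 7 and 5 summits with medians of 59.7 and 130, above the list medians, although 2 summits of A and 1 of B lay under them. Its line A summits scored from 28.5 to 121 and its line B summits from 40.6 to 215, and the nearest H3K27me3 summit of the same line lay at least 47518 bases away in A and 52466 in B.

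Domains were unevenly spread over the chromosomes. The median autosome had 0.140 per Mb, and the median share of domains among an autosome's chains with a summit of each line was 2.70%. Chromosome 18 had 40 domains (0.606 per Mb, 4.37% of chains) and chromosome 23 had 29 (0.552 per Mb), with the highest share of chains, 5.59%. Chromosome 21 had 23, or 5.13% of chains. Chromosomes 27 and 28 had 3 each, the 3 of chromosome 27 including both domains of extreme score described above.

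Most domains of chromosome 23 had no H3K27me3. Of its 29 domains, 4 had H3K27me3 of both lines (13.8%, Wilson interval 5.50% to 30.6%) and 22 had none in either line, against 50.7% and 40.6% over all domains. The next lowest shares were 5 of 18 on chromosome 25, 4 of 13 on chromosome 17 and 9 of 25 on chromosome 19. The highest were 3 of 3 on chromosome 27, 7 of 8 on chromosome 16 and 10 of 12 on chromosome 26. The share over all chains with a summit of each line was not computed by chromosome. A low or high share of the domains can therefore not be told from one of the whole chromosome. Chromosomes were compared after their values were seen, and none of these differences was tested.

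Some domains lay near each other, though most did not. Of 395 pairs of neighbouring domains on a chromosome, 62 (15.7%) were at most 100 kb apart, beside a median distance of 1853 kb, and no such share was computed for other chains. The nearest other chain of any size was a median of 12.9 kb away, against 26.1 kb for paired and 28.4 kb for solitary sites. Joined at 100 kb, 11 groups of 3 or more held 40 domains. The fullest, chr18:55713552-56035001, had 6 domains over 321 kb, of which 2 had H3K27me3 of both lines and 3 had none. At chr19:27554953-27757925 there were 5 domains, 4 without H3K27me3 of either line, while all 3 domains at chr19:53313660-53366716 had it in both lines. At chr7:13786264-13864249, 4 domains lay over 78.0 kb, and 3 of them had H3K27me3 of both lines, by 1 summit in each line.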

How the data were processed

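Per the submitters' processing notes, reads were aligned with BWA to UMD3.1 and peaks called with MACS2; versions, filters and any use of the inputs as control are not given in the sources used here. In 4 lists, 1 per library, the authors deposited summit positions of 1 base (counted from 1 here) with a −log10 score, whether of p or q being unknown. The lowest scores of the lists were 2.00 to 2.03. They hold no widths or read counts, so the depth is unknown. No gene or sequence of UMD3.1 was used.

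Summits were chained and counted in Python 3.11.15 with numpy 2.4.6, pandas 2.3.3 and scipy 1.17.1, and plotted with matplotlib 3.10.9. H3K27me3 counted when it lay in the pooled span or within 1000 bases. Densities per chromosome used the span up to its last summit. Chaining was tested on simulated lists. With 1 library per line and mark no test across lines was made, and intervals are 95% Wilson intervals for counting error only.

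The members, and every list and class, were chosen with earlier results of these data known. Named domains were the 10 widest by mean span, the 5 with most summits, the 5 highest and 3 lowest by score, the 5 with most H3K27me3 per kb, the 5 widest without it, the 3 with the largest difference in summit number, and those first in genome order on either side of the threshold. The 8 domains of extreme score, the equal windows, the score quartiles, the chromosomes and the groups of domains singled out were chosen after seeing the data. Median H3K27me3 density over domains stands beside the pooled density.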

Additional observations from a re-analysis of the deposited data

Results flagged for a closer look

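The X chromosome was outside the choice of domains and was looked at because it carries the same signal outside the main measurement, with no control list to set it against. The same steps gave 16 domains among its 612 chains with a summit of each line. Of these, 13 had H3K27me3 of both lines (81.2%, 95% Wilson interval 57.0% to 93.4%), beside 405 of the 612 chains (66.2%, 62.3% to 69.8%), so the share was high on the X in general and the intervals overlap. The median spans of the 16 were 7.18 kb (A) and 6.13 kb (B). On unplaced sequences, 38 chains held a summit of each line and 0 met the minimum of 3 summits in each line.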

How the results depend on the processing

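The 8 summary results of the domains were recomputed under 88 alternatives, 14 of them chosen after seeing the data. In 45 the value stayed within the spread set for it, in 41 it moved and in 2 it changed sign; the cause of a move was not tested beyond the construction of the alternative. Joining at 2500 or 10000 bases gave 169 or 821 domains, median spans of 3.76 or 11.9 kb, 38.7% or 29.8% of summits with H3K27me3 within 1 kb, 2.73 or 1.31 H3K27me3 summits per 10 kb of domain (2.10 as reported) and median log2 score ratios of -1.10 or -0.61 (-0.95 as reported). Asking for 4 summits of each line gave 117 domains, 9.11 kb, 73.5% of domains and 48.0% of summits with H3K27me3, 57.7 points above solitary sites (34.9 as reported), 2.80 per 10 kb and a ratio of -1.22. Only H3K4me3 summits at or above their list median left 15 domains, 7.25 kb, 60.4% of summits, 3.95 per 10 kb, 24.0 bases between lines and a ratio of 1.98, positive by construction. Only H3K27me3 summits at or above theirs gave 41.5% of domains, 25.2% of summits and 1.34 per 10 kb.

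H3K27me3 counted inside the span alone put domains 47.4 points above solitary sites, since a solitary span has almost no length. The fixed window of 1000 bases around the strongest summit of A gave 20.3% of domains, 4.90 points above. By score quartile, from the lowest, that window gave differences of -0.700, 15.6, 0.800 and 3.01 points. Distances of 500 or 2500 bases gave 25.7% or 49.2% of summits. Without the 8 domains of extreme score 32.7% of summits had H3K27me3 and the ratio was -1.03, and without domains whose lines lay at most 30 bases apart the ratio was -1.16. The 8 were set partly by H3K27me3 score, so the lower share of summits is in part by construction. With 1 line alone there were 552 to 649 domains, median spans of 5.22 to 5.58 kb and ratios of -1.23 to -1.07; the distance between lines then has no value. No paired analysis was possible because each line has 1 library per mark and no result came from a test. Depth is unknown, so a missing summit may be one that the depth could not show.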
